A study of Mus musculus with 11 samples.

Results

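MHC class II genes encode the surface proteins that show peptides from taken-up material to CD4+ T cells. The 10 genes described here are 3 classical chains (H2-Aa, H2-Ab1 and H2-Eb1), the invariant chain Cd74, the peptide editors H2-DMa, H2-DMb1 and H2-DMb2, the editor's partners H2-Oa and H2-Ob, and the regulator Ciita. They were chosen by symbol, with earlier results of these data known, and are 10 of 35683 genes in the table. RNA came from the whole colon wall of 2-week-old mice, with 1 library for each of 11 mice. In 6 mice the gene of TNF receptor 1, Tnfrsf1a, was deleted (Tnfr1-/-), and 5 were wild type (WT). No treatment, inducible allele or transgene is named for either group. The labels give no strain, sex, litter or cage, so whether these differ between the genotypes, or are shared by mice, is unknown. The p-values for genotype set its difference against the spread within genotypes among these 11 samples. The title of the series asks what loss of the receptor does in early life, and here that question is put to antigen presentation.

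In professional antigen-presenting cells (dendritic cells, macrophages and B cells) class II genes are transcribed together. The factors RFX, NF-Y and CREB sit on paired X and Y boxes close to the start of each gene, are present in most cells, and recruit CIITA, which sets whether transcription occurs. Interferon-gamma switches Ciita on in other cells too, epithelium included. The invariant chain guards the groove of a new class II molecule, H2-DM exchanges its remnant for other peptides, and H2-O restrains H2-DM, mainly in B cells.

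The boxes are shown for the class II promoters that RefSeq (build GRCm38.p6) lists, because they are the DNA through which the regulator acts. Of the 10 genes 7 have a promoter in that table, with 8 starts in all, each as 250 bases before and 50 after the start. H2-Ab1, Cd74 and Ciita have none there. Each sequence runs 5′ to 3′ on the strand of its gene. Capitals mark the X core (letters AACNGATG) and the Y core (letters ATTGG, which reads CCAAT on the other strand).
H2-Eb1, chr17:34305763-34305817, plus strand: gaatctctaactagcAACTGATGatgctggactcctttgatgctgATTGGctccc
H2-DMb1, chr17:34153085-34153139, plus strand: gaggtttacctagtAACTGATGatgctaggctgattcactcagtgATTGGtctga
H2-DMb2, chr17:34145114-34145168, plus strand: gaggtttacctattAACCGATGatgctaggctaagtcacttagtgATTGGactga
H2-Aa, chr17:34287862-34287916, minus strand: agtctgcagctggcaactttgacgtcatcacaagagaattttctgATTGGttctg
H2-Oa, chr17:34092291-34092345, plus strand: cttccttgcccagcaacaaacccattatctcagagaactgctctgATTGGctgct
H2-Ob, chr17:34238803-34238857, plus strand: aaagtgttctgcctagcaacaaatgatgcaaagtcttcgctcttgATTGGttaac

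The X core was followed by a Y core after 22 bases in H2-Eb1 and after 23 bases in both H2-DMb1 and H2-DMb2. That arrangement, with 10 to 35 bases allowed between the cores, was present in 10 of 32851 promoters (0.0304%). The other 7 include that of H2-Eb2, a further class II gene of the locus, whose RNA was at most 0.61 normalized TPM in Tnfr1-/- colons and at most 1.32 in WT colons. The promoters of H2-Aa, H2-Oa and H2-Ob held the Y core 48, 43 and 57 bases before the start, without an exact X core. Inexact X cores were not searched for, so these promoters may still hold an X box. One of the 2 starts of H2-DMa had a Y core 198 bases upstream and the other had none. Searched on either strand, the X core alone was in 2.32% of all promoters and the Y core in 37.4%. A GAS element (gamma-activated sequence, TTCNNNGAA) was found in 8.3% of all promoters and among these genes in H2-DMb2. None of the 8 promoters held the interferon-stimulated element (3.44% of all) or the E box CACGTG (7.15% of all). The matches are letters in a window, and no binding was measured.

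**Figure D1:**
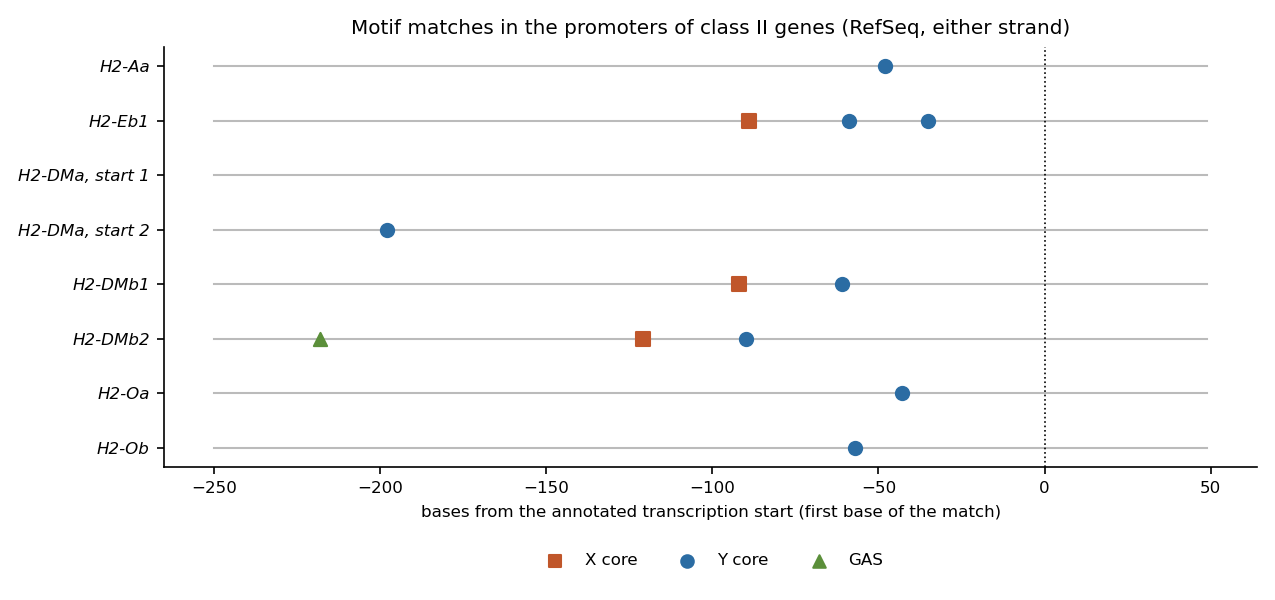
Positions of motif matches on the 8 RefSeq promoters of 7 class II genes, in bases from the annotated start (0, dotted), with squares for the X core, circles for the Y core and a triangle for the GAS element. The X and Y cores lie together upstream of the start in H2-Eb1, H2-DMb1 and H2-DMb2. In H2-Aa, H2-Oa and H2-Ob the Y core lies 43 to 57 bases before the start without an exact X core, and inexact X cores were not searched for.

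Libraries were checked first. Tnfrsf1a RNA averaged 22.4 ± 3.54 normalized TPM in Tnfr1-/- colons (SD, n = 6) and 67.1 ± 5.04 in WT colons (SD, n = 5), a log2 fold change of -1.57 (SE 0.10; limma adjusted p = 8.5e-05). Normalized TPM is RNA abundance corrected for transcript length and library total, which the authors then scaled by a factor for each library. Which part of the gene the deleted allele lacks is not given in the labels. All 9 epithelial markers passed the filter on low values, and their summed level was 5056 to 7233 normalized TPM in Tnfr1-/- colons and 5312 to 9145 in WT colons. WT 1 and WT 2 stood apart from the other 9 libraries: they had the highest epithelial scores (0.37 and 0.51) and the lowest fibroblast scores (-0.44 and -0.48). A score is the mean over a list's tested genes of the log2 value minus that gene's mean over the 11 libraries. Results that rest on WT 1 or WT 2 are therefore given with and without them. In whole tissue, fewer cells of a type and less RNA per cell cannot be told apart.

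The classical chains and the invariant chain were abundant and had lower means in Tnfr1-/- colons, but the groups overlapped for every one of them. Cd74 stood above H2-Aa, H2-Aa above H2-Ab1 and H2-Ab1 above H2-Eb1 in each of the 11 libraries. H2-Aa, the alpha chain of the mouse A molecule, ranged from 40.3 to 70.1 normalized TPM in Tnfr1-/- colons with a median of 65.3, and was 66.8, 98.4, 62.8, 74.4 and 63.2 in WT 1 to WT 5. Tnfr1-/- 2 was lower than all others and WT 2 higher than all others. H2-Ab1, its beta chain, ranged from 35.4 to 51.9 normalized TPM in Tnfr1-/- colons with a median of 46.5, and was 59.7, 74.8, 49.4, 57.5 and 47.7 in WT 1 to WT 5. H2-Eb1, the beta chain of the E molecule, ranged from 26.1 to 44.5 normalized TPM in Tnfr1-/- colons with a median of 41.0, and was 46.8, 64.4, 39.5, 47.2 and 40.1 in WT 1 to WT 5. Tnfr1-/- 2 and WT 2 were again the lowest and the highest library for both chains. Cd74, which encodes the invariant chain, ranged from 68.6 to 117 normalized TPM in Tnfr1-/- colons with a median of 112, and was 123, 183, 97.8, 120 and 99.3 in WT 1 to WT 5. Here too Tnfr1-/- 2 was lowest and WT 2 highest, and 3 of 5 WT libraries lay above all Tnfr1-/- ones. The alpha partner of H2-Eb1 appears in the table as H2-Ea-ps, a pseudogene by its symbol, and was listed at 0 in all 11 libraries. This gene was named after its values were seen.

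**Figure D2:**
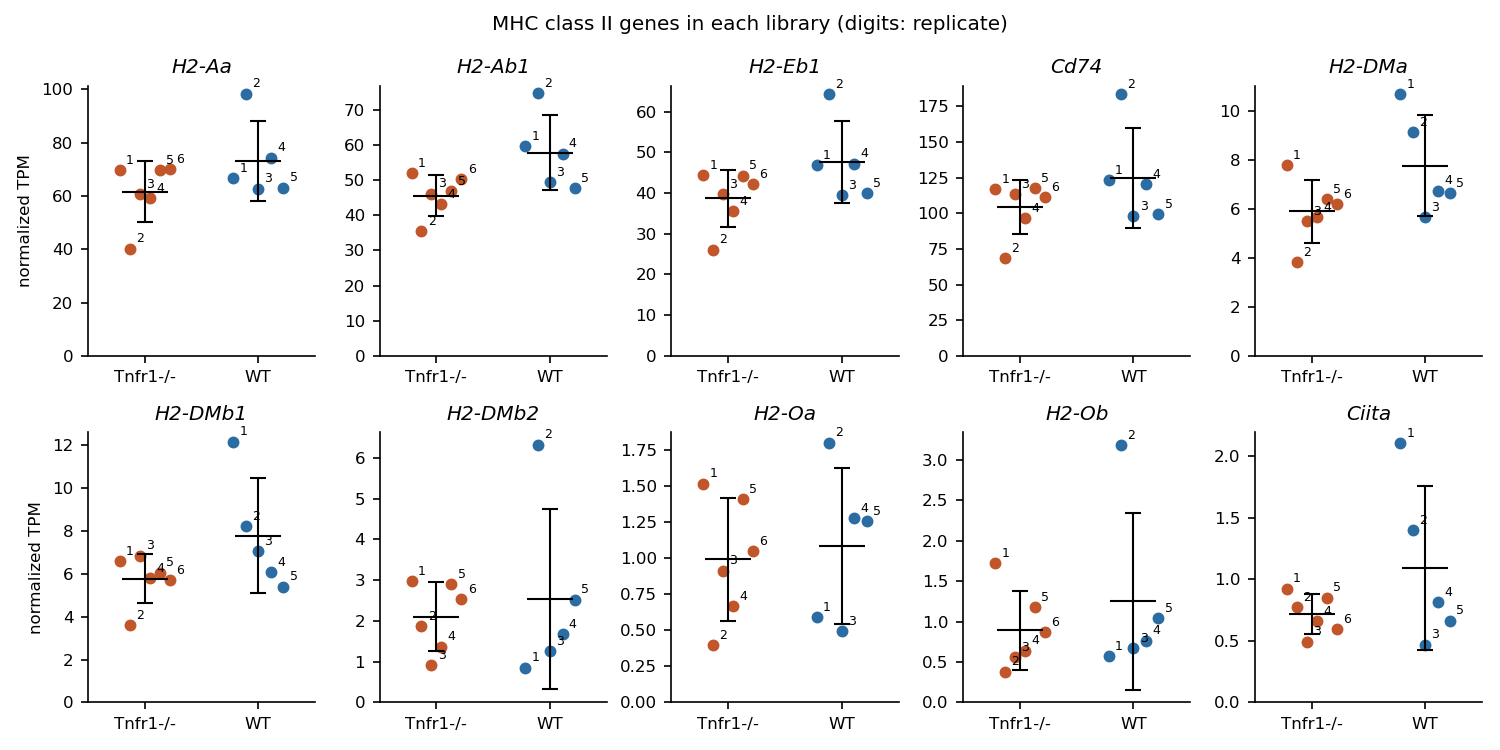
Normalized TPM of the 10 class II genes in each library, Tnfr1-/- (orange, n = 6) left of WT (blue, n = 5), with the mean and SD as black bars and the replicate number beside each point. The groups overlap in every panel, Tnfr1-/- 2 is the lowest point for 8 of the 10 genes (all but H2-DMb2 and Ciita), and WT 2 is the highest for 7 of the 10 genes.

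The peptide editors were present at a much lower level. H2-DMa, the alpha chain of H2-DM, ranged from 3.83 to 7.81 normalized TPM in Tnfr1-/- colons with a median of 5.94, and was 10.7, 9.15, 5.66, 6.75 and 6.66 in WT 1 to WT 5. H2-DMb1, one of its beta chains, ranged from 3.60 to 6.84 normalized TPM in Tnfr1-/- colons with a median of 5.92, and was 12.2, 8.21, 7.05, 6.09 and 5.4 in WT 1 to WT 5. For both genes WT 1 was the highest library and WT 2 followed. The other 3 WT colons lay among the Tnfr1-/- ones for H2-DMa, and for H2-DMb1 WT 3 was also above all Tnfr1-/- colons. H2-DMb2, the other beta chain, ranged from 0.92 to 2.98 normalized TPM in Tnfr1-/- colons with a median of 2.20, and was 0.85, 6.32, 1.26, 1.68 and 2.52 in WT 1 to WT 5. WT 2 was far above the rest and WT 1 the lowest of all 11, the reverse of its rank for H2-DMb1. H2-DMb1 and H2-DMb2 are neighbouring, near-identical genes, so the division of reads between them is uncertain.

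The inhibitors of the editor and the regulator had the lowest mean levels of the 10 genes. H2-Oa, the alpha chain of H2-O, ranged from 0.40 to 1.52 normalized TPM in Tnfr1-/- colons with a median of 0.98, and was 0.59, 1.80, 0.49, 1.27 and 1.25 in WT 1 to WT 5. H2-Ob, its beta chain, ranged from 0.38 to 1.72 normalized TPM in Tnfr1-/- colons with a median of 0.76, and was 0.58, 3.19, 0.68, 0.76 and 1.04 in WT 1 to WT 5. WT 2 was the highest library and Tnfr1-/- 2 the lowest for both, and the other values of the genotypes intermingled. Ciita, the coactivator without which class II genes are silent in most cells, ranged from 0.49 to 0.92 normalized TPM in Tnfr1-/- colons with a median of 0.72, and was 2.11, 1.40, 0.47, 0.82 and 0.66 in WT 1 to WT 5. WT 1 and WT 2 lay above every Tnfr1-/- colon, and the other 3 WT colons lay within or just below their range. The most abundant transcripts of Ciita, H2-Ob and H2-Oa had about 118, 44.4 and 24.1 estimated reads per library, by the exponent of the mean in the authors' deposited table, against 2660 for Cd74. For 118 reads the exact 95% Poisson interval is 98.1 to 142, and for 24.1 reads it is 15.5 to 35.8, for counting error only.

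Ciita can start at alternative first exons that are used by different cell types, which makes its transcripts of interest. The table lists 8. One coding transcript, ENSMUST00000023147.7, held 87.7% of the gene's abundance and averaged 0.61 ± 0.14 normalized TPM in Tnfr1-/- colons (SD, n = 6) and 0.98 ± 0.57 in WT colons (SD, n = 5). Its first exon, at chromosome 16 positions 10488279 to 10488424 (GRCm38), lies between the upstream starts near 10480059 and the downstream starts near 10489746. It is also the longest annotated transcript of the gene, at 6007 bases, followed by one of 4360 bases. Few single 75-base reads fall in a first exon, so the division of Ciita reads among starts is uncertain.

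No class II gene was called between genotypes. Of the 10 genes 8 passed the filter of at least 1 normalized TPM in at least 5 libraries, and Ciita and H2-Ob, above 1 in 2 and 4 libraries, did not. None of the 8 had a limma adjusted p under 0.05, beside 1 of 15079 genes (0.00663%), which was Tnfrsf1a. At an unadjusted p under 0.05 there was 1 of the 8, lower in Tnfr1-/- colons, where 5.17% of all genes were called in that direction. It was H2-Ab1, with a log2 fold change of -0.33 (SE 0.13; limma adjusted p = 0.47; exact permutation p = 0.03, two-sided). All 8 fold changes were below 0, as were 52.1% over all genes, and their median was -0.27, against -0.0061 over all genes. These genes varied together from library to library, so their shared sign is not 8 separate observations.

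The intervals set how large a difference could have been missed. For H2-Aa the log2 fold change was -0.25, with a 95% interval of -0.60 to 0.10. For Cd74 it was -0.25, with an interval of -0.64 to 0.15. H2-DMa and H2-DMb1 had the largest estimates, -0.36 and -0.37, with intervals of -0.77 to 0.04 and -0.82 to 0.07. H2-DMb2 had the widest interval, -0.91 to 0.82 around -0.05. In a fit without the filter, the log2 fold change of Ciita was -0.30 (limma unadjusted p = 0.22) and that of H2-Ob -0.23 (limma unadjusted p = 0.51). These fits used all libraries, a pseudocount of 0.5 and no other term than genotype. A 2-fold difference in the value plus 0.5 lay outside all 10 intervals. For low genes the added 0.5 shrinks differences. A 2-fold difference in normalized TPM itself was therefore not excluded for Ciita, H2-Oa, H2-Ob and H2-DMb2. The intervals of low genes also depended on the setting. With a pseudocount of 0.1 they were -1.12 to 0.33 for Ciita, -1.30 to 0.70 for H2-Ob and -1.06 to 1.00 for H2-DMb2. With the replicate number as a block the lower ends were -1.35 for H2-Ob and -1.02 for H2-DMb2.

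The estimates leaned on a few libraries in both genotypes. Leaving out Tnfr1-/- 2 alone gave log2 fold changes of -0.13 for H2-Aa and -0.13 for Cd74, with a median of -0.16 over the 8 tested genes. Leaving out WT 2 alone gave -0.14 for H2-Aa, -0.10 for Cd74 and the same median, -0.16, and leaving out WT 1 alone gave a median of -0.26. Without WT 1 and WT 2, a choice made after seeing the data, 7 of 8 fold changes were below 0 (52.5% of all genes in that fit) but their median was -0.12, and none had an unadjusted p under 0.05. The log2 fold change of H2-Ab1 was then -0.18 and that of Cd74 -0.04. The estimates for Ciita, H2-DMb2 and H2-Ob changed sign, to 0.08, 0.12 and 0.0085.

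**Figure D3:**
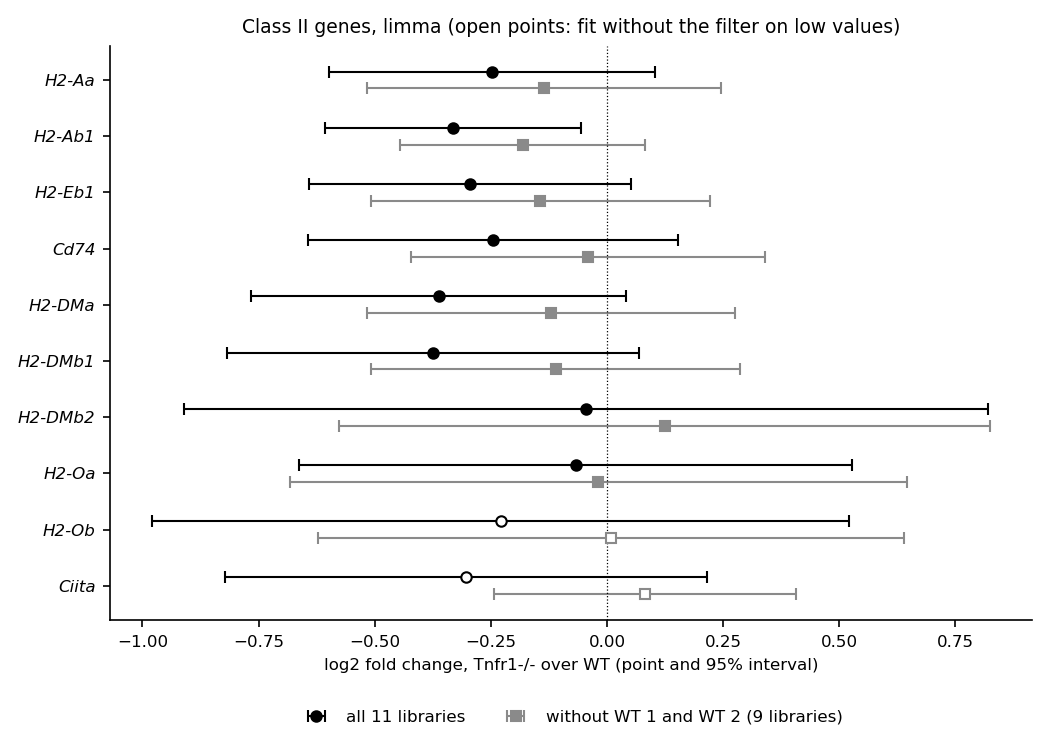
Log2 fold change (Tnfr1-/- over WT) of each class II gene with its 95% interval, from all 11 libraries (black circles) and from the 9 without WT 1 and WT 2 (grey squares); open points are from the fit without the filter. With all libraries every estimate is below 0, and only the interval of H2-Ab1 stays below 0; without the 2 libraries all intervals span 0.

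Single transcripts were tested too. Of 12 class II transcripts that passed the filter, 0 had a limma adjusted p under 0.05, beside 3 of 33276 in all (0.00902%). At an unadjusted p under 0.05 there were 2, both lower in Tnfr1-/- colons, where 3.93% of all transcripts were called in that direction. They were the main transcript of H2-Ab1, with a log2 fold change of -0.35 (limma unadjusted p = 0.037), and the longer one of H2-DMb1, with -0.58 (limma unadjusted p = 0.013). The shorter transcript of H2-DMb1 had a log2 fold change of 0.18. The authors' deposited table gives none of 15 tested class II transcripts a q under 0.05 (0.00201% of all). It gives 2 of them a p under 0.05 (4.39% of all), and these are the same 2 transcripts.

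The machinery around the class II genes was examined by lists. No list gene had a limma adjusted p under 0.05 in any of the 12 lists with tested genes, with all libraries or without WT 1 and WT 2; counts at an unadjusted p under 0.05 are given for each list. Of 8 genes for the factors on the X and Y boxes, all passed the filter, 0 were lower and 1 was higher at an unadjusted p under 0.05, and the median log2 fold change was 0.07. That gene was Nfya, the DNA-contacting subunit of NF-Y, at 9.83 ± 1.06 normalized TPM in Tnfr1-/- colons (SD, n = 6) and 8.44 ± 0.06 in WT colons (SD, n = 5), a log2 fold change of 0.20 (limma adjusted p = 0.43). A second copy of Nfya in the annotation can share its reads. Of 9 tested genes upstream of Ciita, 1 was lower at that level and 0 higher. It was Irf8, a transcription factor of myeloid cells, at 21.6 ± 2.15 normalized TPM in Tnfr1-/- colons (SD, n = 6) and 28.5 ± 6.07 in WT colons (SD, n = 5), with a log2 fold change of -0.37 (limma adjusted p = 0.41). Its highest values, 37.8 and 31.1, were in WT 1 and WT 2, and without them its log2 fold change was -0.18 and that of Nfya 0.20.

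Of 8 tested genes that cut proteins or remove class II molecules, 1 was lower and 0 higher at an unadjusted p under 0.05. It was Lgmn, the endosomal protease legumain, at 67.6 ± 5.45 normalized TPM in Tnfr1-/- colons (SD, n = 6) and 77.1 ± 7.91 in WT colons (SD, n = 5), a log2 fold change of -0.19 (limma adjusted p = 0.50). Of 5 tested costimulators and class II receptors, 1 was lower and 0 higher. It was Cd40, the receptor through which T cells prime antigen-presenting cells, at 1.67 ± 0.51 normalized TPM in Tnfr1-/- colons (SD, n = 6) and 2.48 ± 0.71 in WT colons (SD, n = 5), a log2 fold change of -0.46 (limma adjusted p = 0.50). Leaving out WT 1 and WT 2, the log2 fold changes of Lgmn and Cd40 were -0.29 and -0.63. Read against 5.17% of all genes lower at this level, single genes in lists of this size are near the background.

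Markers of antigen-presenting cells were compared in the same fit. Of 16 tested macrophage and monocyte genes, 15 had a log2 fold change below 0, as did 52.1% of all genes. At an unadjusted p under 0.05, 3 were lower and 0 higher, where 5.17% of all genes were lower, and the median was -0.19. Genes of 1 cell type can vary together, so these are not 16 separate observations. The macrophage score was -0.43 in Tnfr1-/- 2, -0.10 to 0.17 in the other Tnfr1-/- colons and -0.01 to 0.26 in WT colons. The 3 were Aif1, a cytoskeletal protein of macrophages, Fcgr1, an IgG receptor, and Ccr2, the receptor that draws monocytes into tissue. Aif1 was at 11.9 ± 2.52 normalized TPM in Tnfr1-/- colons (SD, n = 6) and 15.3 ± 1.31 in WT colons (SD, n = 5), a log2 fold change of -0.38 (limma adjusted p = 0.48). The most abundant, Lyz2, which encodes lysozyme, was at 33.6 ± 6.35 normalized TPM in Tnfr1-/- colons (SD, n = 6) and 41.9 ± 13.3 in WT colons (SD, n = 5), with a log2 fold change of -0.29. The summed level of the 18 macrophage genes was 173 to 266 normalized TPM in Tnfr1-/- colons and 221 to 289 in WT colons, and no marker was at 0. Leaving out WT 1 and WT 2, the median was -0.24 and 15 of 16 were still below 0 (52.5% of all genes in that fit). Of these, 2 were lower at an unadjusted p under 0.05, where 10.3% of all genes were called in that direction.

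Dendritic cells and B cells gave no gene at that level. Of 10 dendritic cell genes 5 passed the filter, with 0 lower and 0 higher at an unadjusted p under 0.05 and a median log2 fold change of -0.03. Their summed level was 10.2 to 14.4 normalized TPM in Tnfr1-/- colons and 9.16 to 14.9 in WT colons. Of 10 B cell genes 3 passed (Cd37, Cd79a and Cd79b, the last 2 being signalling chains of the B cell receptor), with 0 in either direction. The summed B cell level was 5.90 to 19.5 normalized TPM in Tnfr1-/- colons and 4.41 to 44.9 in WT colons. Cd79a was 10.1 normalized TPM in WT 2, at most 4.55 in Tnfr1-/- colons and at most 2.80 in the other WT colons. Of 6 tested T, NK and innate lymphoid genes 0 were lower and 0 higher at that level, while 5 had a log2 fold change above 0 and the median was 0.25. Of the 9 epithelial genes 1 was lower (Cldn7, a tight junction protein, with a log2 fold change of -0.20, and -0.10 without WT 1 and WT 2) and of 7 fibroblast genes 0 in either direction. At any p, 9 of 9 epithelial and 3 of 7 fibroblast genes were below 0, as were 52.1% of all genes. Without WT 1 and WT 2 these counts were 1 of 9 and 7 of 7 (52.5% of all genes in that fit). In that fit 1 fibroblast gene was lower at an unadjusted p under 0.05, where 10.3% of all genes were lower.

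All 20 tested interferon-gamma genes were highest in WT 1, and WT 1 and WT 2 were the highest 2 libraries for 15 of 16 tested type I interferon genes. For 11 of the 20 interferon-gamma genes Tnfr1-/- 2 was above WT 2. Of these 20 genes, 19 had a log2 fold change below 0 with a median of -0.53, yet 0 had an unadjusted p under 0.05, and without WT 1 and WT 2 the median was 0.08. Psmb9, a subunit of the immunoproteasome, was 12.5 to 17.9 normalized TPM in Tnfr1-/- colons, 61.4 in WT 1, 28.2 in WT 2 and 14.7 to 16.8 in the other WT colons, and its log2 fold change was -0.64, against -0.10 without WT 1 and WT 2. Gbp3, a guanylate-binding protein, was 23.6 normalized TPM in WT 1 and between 3.52 and 6.03 in the other 10 libraries. Ifng itself, named after its values were seen, was 0.52 normalized TPM in WT 1 and at most 0.08 elsewhere. Of 16 tested type I interferon genes, 15 had a log2 fold change below 0, as did 52.1% of all genes. Their median was -0.32, and 0.07 without WT 1 and WT 2. At an unadjusted p under 0.05, 1 was lower, where 5.17% of all genes were lower, and 0 higher. It was Bst2, the virus-tethering protein tetherin, at 20.8 ± 1.15 normalized TPM in Tnfr1-/- colons (SD, n = 6) and 29.3 ± 9.59 in WT colons (SD, n = 5), a log2 fold change of -0.44 (limma adjusted p = 0.43), and -0.23 without WT 1 and WT 2.

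Across libraries some class II genes moved more closely together than others. The sets named here were read off the correlations, overlap, and are a description of 11 libraries that share processing and scaling. Among H2-Aa, H2-Ab1, H2-Eb1 and Cd74, Pearson's r of log2 values was 0.92 to 0.98 in 6 pairs. Among H2-DMb2, H2-Oa and H2-Ob it was 0.74 to 0.88 in 3 pairs. Among Ciita, H2-DMa and H2-DMb1 it was 0.65 to 0.87 in 3 pairs. Between the last 2 sets it was -0.16 to 0.56 in 9 pairs. The classical set was not separate from the others: H2-DMa had r of 0.77 to 0.87 with its 4 genes, as high as with Ciita (0.77), and H2-Ob 0.70 to 0.80.

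**Figure D4:**
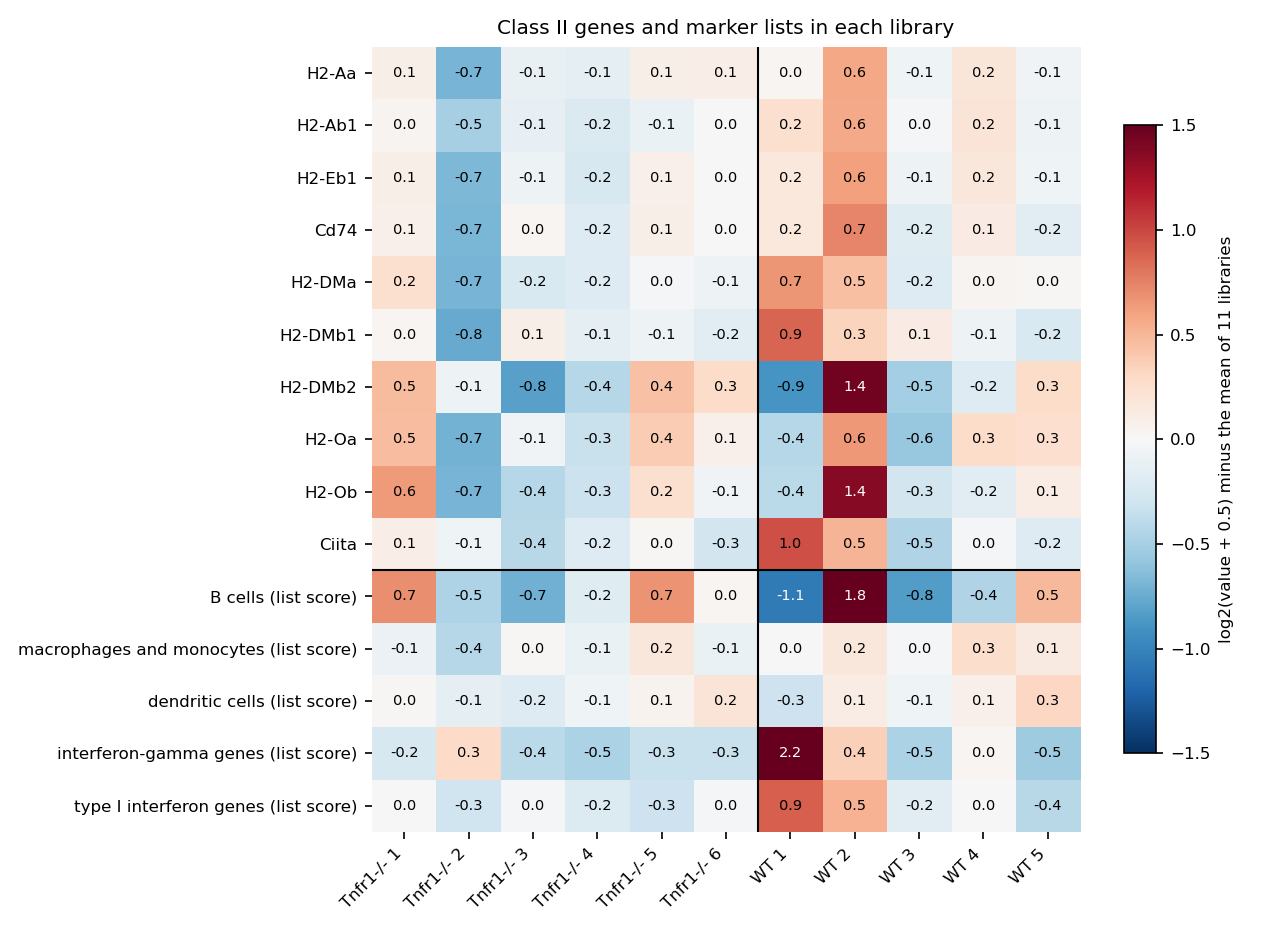
Log2(value + 0.5) of each class II gene minus its mean over 11 libraries (rows above the line) and scores of 5 marker lists (below), with Tnfr1-/- libraries left of WT; red is above the mean and blue below, and the colour scale ends at 1.5 in both directions. WT 1 is high for Ciita, H2-DMa, H2-DMb1 and both interferon lists and low for H2-DMb2 and B cells, while WT 2 is high for all 10 genes and highest for B cells.

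Whether class II RNA followed its regulator was tested over the 11 libraries, with the 9 relations adjusted together. None was called on Pearson's r. Here and below, permutation p-values are those of r unless rho is named with them. The closest was H2-DMa with Ciita (r = 0.77, rho = 0.81; permutation p = 0.0059, two-sided, adjusted 0.053 for r and 0.036 for rho). The relation rested on WT 1 and WT 2, the libraries farthest from the median of Ciita, since r was 0.29 without them. Leaving out Tnfr1-/- 2, the library with the lowest H2-DMa, gave r = 0.97. H2-DMb1 with Ciita gave r = 0.65 (rho = 0.33; permutation p = 0.041, adjusted 0.19), and r = -0.31 without WT 1 and WT 2.

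The classical chains and Cd74 followed Ciita weakly by Pearson's r, and Cd74 and H2-Eb1 more closely by rank. For H2-Ab1 r was 0.59 (rho = 0.57; permutation p = 0.065 for r, adjusted 0.20 for r and 0.16 for rho). For Cd74 it was 0.50 (rho = 0.71; adjusted permutation p = 0.25 for r and 0.056 for rho). For H2-Eb1 it was 0.49 (rho = 0.72; adjusted permutation p = 0.25 for r and 0.056 for rho). For H2-Aa it was 0.36 (rho = 0.48; adjusted permutation p = 0.38 for r and 0.22 for rho). These 4 values of r were 0.05 to 0.11 without WT 1 and WT 2, and within the 6 Tnfr1-/- colons they lay between -0.07 and 0.05. Of all tested genes, 13.4% to 25.4% had an r with Ciita as high as these 4. WT 1 had the most Ciita, at 2.11 normalized TPM, beside an H2-Aa level of 66.8, which 5 other libraries exceeded.

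H2-DMb2, H2-Oa and H2-Ob had low r with Ciita over 11 libraries, 0.17, 0.15 and 0.32 (rho = 0.36, 0.47 and 0.39; adjusted permutation p = 0.67, 0.67 and 0.41). Their r was 0.70, 0.50 and 0.51 without WT 1 and WT 2, and without WT 1 alone it was 0.87, 0.65 and 0.80. In that last setting H2-DMb2 and H2-Ob passed the adjusted threshold (adjusted permutation p = 0.017 and 0.034).

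Each gene was then set against 5 list scores, 50 relations adjusted together, of which 6 were called. The B cell score was called with the set made up of H2-DMb2, H2-Ob and H2-Oa. For H2-DMb2 r was 0.96 (rho = 0.95; permutation p = 1e-05, the smallest that 100000 resamples can give, adjusted 0.0005). For H2-Ob r was 0.92 (rho = 0.87; adjusted permutation p = 0.0028) and for H2-Oa 0.81 (rho = 0.85; adjusted permutation p = 0.028). Without Tnfr1-/- 1 and WT 2, the libraries farthest from the median score, r was 0.90, 0.80 and 0.70. Over the 9 libraries other than WT 1 and WT 2 the adjusted exact permutation p of these 3 relations was 0.075, 0.075 and 0.21. Of all tested genes, 0.0336% had an r with the B cell score as high as that of H2-DMb2, 0.0671% as high as H2-Ob and 0.262% as high as H2-Oa. The score rests on 3 genes with means of 2 to 4 normalized TPM. H2-DMb1, the paralog of H2-DMb2, had r = -0.06 with it.

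The type I interferon score was called with the set made up of Ciita, H2-DMa and H2-DMb1. The values of r were 0.83, 0.79 and 0.85 (rho = 0.49, 0.61 and 0.78; adjusted permutation p = 0.048, 0.039 and 0.0155 for r, and 0.33, 0.15 and 0.079 for rho, so none passed on rho). Of all tested genes, 1.62%, 3.01% and 1.21% had an r with that score as high. These relations rested on WT 1 and WT 2: without them r was -0.10, 0.31 and 0.50. Without passing the threshold, H2-Ab1, Cd74, H2-Eb1 and H2-Aa had r of 0.73, 0.63, 0.60 and 0.48 with this score. Their rho was 0.77, 0.70, 0.67 and 0.45 (adjusted permutation p = 0.066, 0.17, 0.19 and 0.31 for r). Without WT 1 and WT 2 their r was 0.54, 0.53, 0.43 and 0.43. For H2-DMb2, H2-Oa and H2-Ob r over 11 libraries was -0.03, 0.05 and 0.24. With the interferon-gamma score WT 1 formed a cluster of its own, at 2.15 where the other 10 libraries ran from -0.54 to 0.35, so r was taken over those 10. It was 0.73 for Ciita (rho = 0.67; permutation p = 0.014, adjusted 0.071). For H2-Aa, H2-Ab1, H2-Eb1 and Cd74 it was 0.11 to 0.30, but 0.80 to 0.83 without Tnfr1-/- 2 and WT 2, so 2 libraries decide these values. The type I relations kept WT 1 and the interferon-gamma relations did not, so passing the threshold cannot be compared between the interferon scores.

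The macrophage score went with the classical chains without passing the threshold. The r was 0.78 for H2-Aa (rho = 0.64; adjusted permutation p = 0.066), 0.77 for H2-Eb1 (rho = 0.68; adjusted permutation p = 0.066), 0.71 for Cd74 (rho = 0.72; adjusted permutation p = 0.10) and 0.67 for H2-Ab1 (rho = 0.46; adjusted permutation p = 0.10). Without Tnfr1-/- 2 and WT 4 the 4 values were 0.36 to 0.52. Tnfr1-/- 2, the lowest library for all 4 genes, also had the lowest macrophage score, -0.43. Of all tested genes 0.564% to 1.89% had an r with that score as high. H2-Oa also had r = 0.68 with the macrophage score (rho = 0.61; adjusted permutation p = 0.075). The dendritic cell score gave r of -0.34 to 0.67 with the 10 genes, none called. The highest were for the set called with the B cell score. For H2-DMb2, H2-Oa and H2-Ob r was 0.67, 0.65 and 0.52 (rho = 0.71, 0.65 and 0.75; adjusted permutation p = 0.095, 0.10 and 0.24). The dendritic cell score rests on 5 genes with means of 1.2 to 2.8 normalized TPM, and Flt3, Xcr1 and Clec9a did not pass the filter. Without WT 1 and WT 5, the libraries farthest from the median of that score, r was 0.72 for H2-Aa, 0.65 for H2-Ab1, 0.66 for H2-Eb1, 0.59 for Cd74 and 0.67 for H2-DMa, against 0.40, 0.19, 0.28, 0.21 and 0.03 with all 11. For Ciita it was 0.46 without them and -0.29 with all 11.

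**Figure D5:**
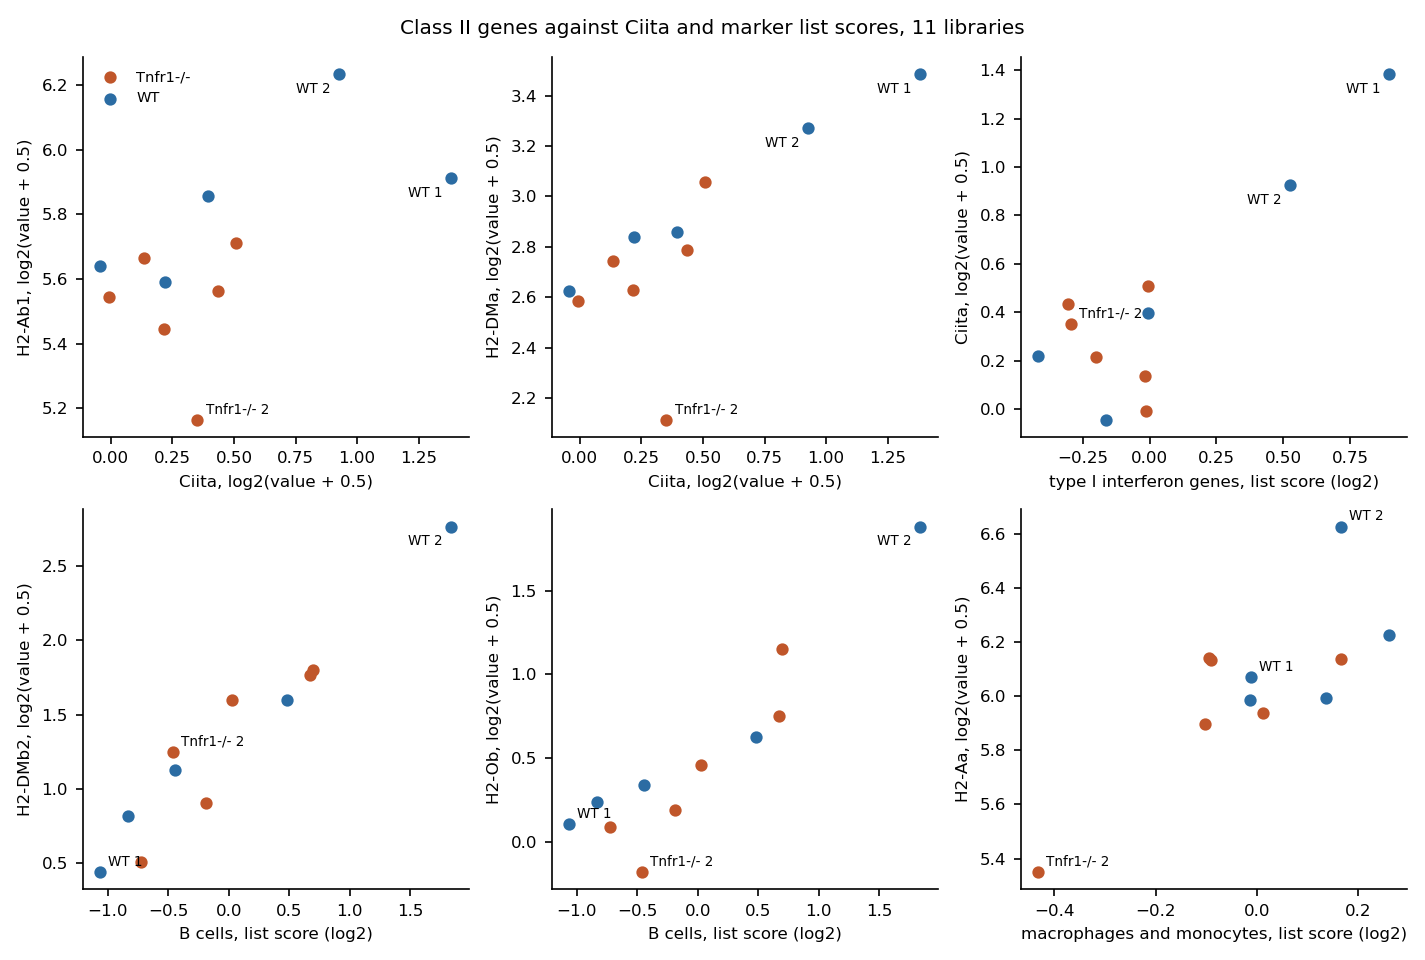
Each point is 1 library (orange Tnfr1-/-, blue WT); the axes give log2(value + 0.5) of a gene or the score of a marker list on the log2 scale. H2-DMb2 and H2-Ob line up with the B cell score (r = 0.96 and 0.92), the relations of Ciita with H2-Ab1, H2-DMa and type I interferon genes hang on WT 1 and WT 2, and Tnfr1-/- 2 is the low point for H2-Aa and macrophages.

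The genes whose pattern was most like that of Ciita, among 10698 with a mean of at least 5 normalized TPM, were Parp12, Rac1, Tapbp, Vwa5a and Rps6ka1, with r of 0.95 to 0.97 over 11 libraries. Without WT 1 and WT 2 they were Mia3, Carhsp1, Rac1, Rhoc and Cst3, with r of 0.93 to 0.95, so that Rac1 alone stood in both. The genes most like the mean of H2-Aa, H2-Ab1, H2-Eb1 and Cd74 were Cd52, Tbc1d22a, Zfand1, Coro1a and Fam107b, with r of 0.88 to 0.93. Cd52 had the highest r but a rho of 0.58, at 49.1 normalized TPM in WT 2 and 15.8 to 30.2 elsewhere. Without WT 1 and WT 2 they included Slc37a3, Atp6v1g2, Ppib and Exo5, with r of 0.92 to 0.94 and rho of 0.57 to 0.80, and these were not among those 5. Picked as the highest of 10698 genes, all these values of r are high by selection.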

How the data were processed

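Poly(A) RNA of whole colon was sequenced from 1 end for 75 bases in stranded libraries, 6 Tnfr1-/- and 5 WT, per the labels' protocols. Software listed in the submitters' processing notes is CASAVA, kallisto and sleuth, with the build mm10 and no versions. The authors' deposited signal is TPM per transcript divided by a factor for each library. The deposited log2 fold change, p-value, q-value and natural log mean of estimated counts are the authors' own, per the file headers. The table gives no read totals, so the depth of each library is unknown.

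From 113991 lines 113193 transcripts were kept after dropping repeats, which held identical values. Signals were summed per Ensembl gene. The 97 transcripts without a gene (0.031% of the signal) were left out. The genotypes were contrasted with limma 3.58.1 in R 4.3.3 on log2(value + 0.5) (empirical Bayes with a trend, two-sided), for genes or transcripts of at least 1 in at least 5 libraries, with Benjamini-Hochberg adjustment over all tested. Fold changes on this scale understate changes of low genes. Correlations used permutation tests (100000 resamples, exact under 10 libraries) in Python 3.11.15 with scipy 1.17.1, and a library set apart by a gap of over 50% of the range was left out. Scripts were tested on simulated data. Positions are from GENCODE M21 (GRCm38, which is mm10).

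The genes, the 13 lists and the alternatives were chosen with earlier results of these data known. Named genes are Tnfrsf1a, the 10 class II genes, list genes with an unadjusted p under 0.05 (otherwise up to 4 with the smallest p, or in marker lists the highest mean) and the 5 genes most like each profile. A gene that this rule takes is not reported here. The alternatives were pseudocounts of 1 and 0.1, no filter and a filter of 10, other scalings, sample weights, a replicate block, and leaving out libraries.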

Additional observations from a re-analysis of the deposited data

Results flagged for a closer look

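Each group's highest and lowest library was compared with the rest of the group, by the gap to its nearest neighbour as a share of the group's range, for 32 sets of values (10 class II genes, Tnfrsf1a and 5 list scores in both genotypes). A library stood apart in 4, where chance gives about 1 in 20 for a single set. The sets share libraries and many of them move together, so the 4 are not separate observations. Among Tnfr1-/- colons replicate 2 was low for H2-Aa, at 40.3 normalized TPM with the next at 59.2, and for H2-DMb1, at 3.60 with the next at 5.70. The same replicate had the highest interferon-gamma score of its group, 0.28 with the next at -0.24. Among WT colons replicate 2 was high for H2-Ob, at 3.19 normalized TPM with the next at 1.04.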

How the results depend on the processing

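No class II gene had an adjusted p under 0.05 in any setting tried. All genes called numbered 1 in most settings, 3 with sample quality weights, 6 without the filter and without WT 1 and WT 2 together (chosen after seeing the data), and 1 to 2 with 1 library left out. Transcripts called were 3, 5 without WT 1 and WT 2 together, 24 when the filter was dropped too, and 1 to 10 with 1 library left out. With columns rescaled to the same sum, genes at an unadjusted p under 0.05 were 506 lower and 646 higher, against 779 lower and 634 higher as deposited, and all 8 class II estimates stayed below 0.

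The log2 fold change of H2-DMb2 was 0.12 without WT 1 and WT 2, with or without the filter, and -0.27 to 0.31 with 1 library left out. That of H2-Oa was 0.016 with sample quality weights and -0.22 to 0.085 with 1 library left out. Without the filter and without WT 1 and WT 2 it was 0.082 for Ciita and 0.0085 for H2-Ob, which ran from -0.38 to 0.082 with 1 library left out. The cause of these changes of sign was not tested.

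The relations with Ciita called were 1 with a pseudocount of 1 and 1 with rescaled columns, both H2-DMa, and 0 to 2 with 1 library left out. The relations with lists called were 14 after quantile normalization, 0 without WT 1 and WT 2 together, 0 within the 6 Tnfr1-/- colons, 3 with scores over genes with a mean of at least 5 (not possible for B cells and dendritic cells, which have none) and 2 to 11 with 1 library left out. Values of r that changed sign with Ciita were, within the 6 Tnfr1-/- colons, Cd74 at -0.069 and H2-DMb1 at -0.20, and without WT 1 and WT 2 H2-DMb1 at -0.31. Where leaving out WT 2 or WT 1 set the other of the pair apart by its gap, both were out and 9 libraries remained, which gives the low ends for H2-DMb1 and for Ciita with the type I score below. With 1 library named as left out H2-DMb1 ran from -0.31 to 0.81 and H2-Oa from -6.9e-05 to 0.65. Ciita with the type I interferon score was -0.10 without WT 1 and WT 2 and -0.10 to 0.88 with 1 library named as left out. With the interferon-gamma score H2-Aa was -0.11 on values centred on the genotype means, and without WT 1 and WT 2 H2-Aa, H2-Ab1, H2-Eb1 and Cd74 were -0.49, -0.31, -0.44 and -0.44. With 1 library left out beside WT 1, which its gap always set apart on that score, those 4 ran from -0.49, -0.31, -0.44 and -0.44 up to 0.95, 0.95, 0.94 and 0.93.

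Whether replicate numbers pair the samples is not given in the labels. Same-numbered Tnfr1-/- and WT libraries deviated from their group means with correlations of 0.27, -0.01, 0.38, -0.22 and 0.33. By these deviations Tnfr1-/- 3 was most like WT 3, while Tnfr1-/- 1, 2, 4 and 5 were most like WT 2, 5, 3 and 4. With the replicate block, 1 gene, 0 class II genes and 2 transcripts were called, and 0 class II genes had an unadjusted p under 0.05.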
